A study of Mus musculus with 10 samples.

Results

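The 9 genes described here, *Mrc1*, *Stab1*, *Cd163*, *Lyve1*, *Dab2*, *Pf4*, *F13a1*, *Folr2* and *Cbr2*, are commonly used as markers of border-associated and other resident macrophages. They were taken by name from the deposited count table, in which all 9 of 9 were found among 55487 genes. Border-associated macrophages live in the meninges, the choroid plexus and the spaces around vessels of the central nervous system, and are told from microglia by scavenger and endocytic receptors such as the mannose receptor, CD163 and LYVE1. These receptors take up glycoproteins, haemoglobin complexes and hyaluronan. Several of the 9 genes are also used by other cells, such as *Pf4* by platelets, *Stab1* and *Lyve1* by sinusoidal and lymphatic endothelium and *F13a1* by monocytes.

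The spinal cords were those of male C57BL/6 animals with an *Arg1*-eYFP reporter (allele Arg1tm1Lky), in which a yellow fluorescent protein (YFP) is made from the *Arg1* locus. All mice had been immunized with a MOG peptide and were taken at the peak of experimental autoimmune encephalomyelitis (EAE), a model of multiple sclerosis, so that no library came from a healthy mouse. Viable Ly6G- CD3- CD45+ CX3CR1+ cells were sorted into YFP+ cells (ARG1+, 200000 cells) and YFP- cells (ARG1-, 100000 cells). Each of 5 animals, m2, m6, m234, m235 and m236, gave 1 library of each kind, which makes 5 ARG1+ and 5 ARG1- libraries in all. The gate takes in microglia, border-associated macrophages and monocyte-derived cells alike. The paper also proposes that CX3CR1+ cells not derived from monocytes could include conventional dendritic cells. In such bulk libraries, fewer cells of a type and less RNA per cell cannot be told apart.

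The total count was 28870482 to 33826355 in ARG1+ libraries and 8396863 to 35455643 in ARG1- libraries. The ARG1- library of m234 was the smallest, the next having 28212174 counts, and its summed level of 14 microglia markers was also the highest (3583 CPM, that is read counts scaled to the same library total, against 975 to 1795 CPM in the other ARG1- libraries). The values of the tested members are therefore given with and without it, as are those of the microglia list. *Arg1*, which codes for arginase and checks the sort, was at 802 ± 175 CPM (SD, n = 5) in ARG1+ cells and 18.7 ± 5.31 in ARG1- cells (SD, n = 5). Of the genes used in the gate, *Cx3cr1* was at 137 ± 65.5 and 286 ± 179 CPM and *Ptprc*, which codes for CD45, at 613 ± 34.1 and 736 ± 70.7 CPM (SD, n = 5 each), while *Ly6g* had 0 to 4 and *Cd3e* 0 to 7 counts per library.

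The sequences before the start sites of the 3 genes that were higher in ARG1+ cells are shown because these genes moved in the same direction. They were taken from RefSeq (GRCm38.p6), which held windows for 8 of the 9 genes, and end before the first annotated exon. Capitals mark every match, on either strand, to the core of PU.1 sites (GGAAGT), the core of MAF sites (TGCTGA), an AP-1 site (TGANTCA), a RUNX site (TGTGGT), a C/EBP site (TTGCNNAA) or an E-box (CACGTG).
Mrc1, chr2:14229164-14229391, forward strand: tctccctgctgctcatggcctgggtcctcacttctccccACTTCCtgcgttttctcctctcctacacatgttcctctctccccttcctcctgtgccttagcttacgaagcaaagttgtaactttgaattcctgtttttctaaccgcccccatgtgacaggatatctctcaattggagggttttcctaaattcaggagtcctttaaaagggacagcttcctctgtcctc
Stab1, chr14:31168642-31168891, reverse strand: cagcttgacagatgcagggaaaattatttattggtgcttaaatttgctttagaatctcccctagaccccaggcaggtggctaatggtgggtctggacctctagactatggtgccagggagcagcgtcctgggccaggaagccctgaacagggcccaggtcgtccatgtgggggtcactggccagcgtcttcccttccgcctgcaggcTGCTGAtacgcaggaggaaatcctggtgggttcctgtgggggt
Pf4, chr5:90772185-90772434, forward strand: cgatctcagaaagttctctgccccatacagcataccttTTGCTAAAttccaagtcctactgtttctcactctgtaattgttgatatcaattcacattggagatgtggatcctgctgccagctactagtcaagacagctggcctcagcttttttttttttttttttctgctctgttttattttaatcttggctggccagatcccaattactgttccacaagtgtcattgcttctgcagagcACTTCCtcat

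*Mrc1* and *Pf4* each held 1 PU.1 core on the reverse strand, 211 and 10 bases before the RefSeq start, *Pf4* also held a C/EBP site, and *Stab1* held a MAF core. None of these matches overlapped another. In the 250 bases before the start, 19.7% of 32851 windows in the RefSeq table held a PU.1 core, 16.1% a MAF core and 9.56% a C/EBP site, so that such matches are frequent. RUNX, AP-1 and E-box letters, which 14%, 6.75% and 6.02% of windows held, were not in these 3 windows. Windows of members not called higher held such matches too. *Dab2* had a MAF core and a C/EBP site, *F13a1* a PU.1 core, and *Folr2* PU.1, MAF, RUNX and AP-1 letters. Those of *Cd163* and *Cbr2* held none. The match is a description of the letters and not of a bound site.

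Of the 9 genes, 5 passed the filter of CPM above 1 in at least 3 libraries, which left 13740 genes, and 4 did not. Among these 5, 3 (*Mrc1*, *Stab1* and *Pf4*) were higher in ARG1+ cells at an FDR below 0.05 (quasi-likelihood test of edgeR with Benjamini-Hochberg adjustment), where 6.82% of all tested genes were higher at the same limit. By edgeR 0 of the 5 were lower, where 6.15% of all tested genes were, and also 0 at an unadjusted p under 0.05 or by DESeq2. *F13a1* had an edgeR FDR of 0.0511 and *Dab2* one of 0.788. With a log2 fold change above 1 asked for as well, 2 of the 5, *Mrc1* and *Pf4*, remained, against 0.560% of all tested genes. The median log2 fold change of the 5 genes was 0.78, and that of all tested genes was -0.0022. The animal as a replicate block raised the number of higher members to 4, by adding *F13a1*, where 16.8% of all tested genes were higher.

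*Mrc1* codes for the mannose receptor CD206, which takes up glycoproteins that end in mannose. Its gene spans 14229392 to 14332057 of chromosome 2 in GRCm38 (forward strand). In ARG1+ libraries it was at 106, 61.4, 37.6, 42.0 and 54.3 CPM in m2, m6, m234, m235 and m236. In ARG1- libraries of the same animals it was at 48.0, 30.1, 16.3, 18.3 and 23.7 CPM. The groups overlapped, because the ARG1- library of m2 lay above the ARG1+ libraries of m234 and m235, but the ARG1+ library was the higher one in each animal. The log2 fold change was 1.16 (standard error 0.315, edgeR FDR 0.0320). All 15 fits that left out a library or an animal were unpaired, without a block for the animal. The call of *Mrc1* was lost in 10 of these 15 fits, which gave log2 fold changes of 0.87 to 1.46 and an edgeR FDR of up to 0.113. In ARG1+ cells the libraries concerned were those of m236, m6 and m2, in ARG1- cells those of m6, m234, m235 and m236, and of whole animals m6, m235 and m236. Without the ARG1- library of m234 the value was 1.05 (edgeR FDR 0.0534). With the animal as a block it was 1.19 (standard error 0.0429, edgeR FDR 2.62e-07).

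*Stab1* codes for stabilin-1, a scavenger receptor of macrophages and sinusoidal endothelium that clears modified proteins. The gene spans 31139013 to 31168641 of chromosome 14 (reverse strand). Its level was 749.7, 890.5, 793, 722 and 982 CPM in ARG1+ libraries of m2, m6, m234, m235 and m236. In ARG1- libraries it was at 559, 611, 492, 513 and 600.5 CPM in the same order. The lowest ARG1+ library was above the highest ARG1- library, which held for 4.43% of all tested genes. The log2 fold change was 0.62 (standard error 0.0942, edgeR FDR 0.00195), the smallest of the 3 called members but the one with the lowest standard error. It stayed between 0.55 and 0.66 in the 15 fits that left out a library or an animal, with an edgeR FDR of at most 0.0155, and was 0.58 without the ARG1- library of m234. The end of *Stab1* overlaps *Nt5dc2* on the opposite strand over 1.40% of its exon bases. The share of its counts that this concerns was not tested.

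*Dab2* codes for a clathrin adaptor that brings cargo receptors into coated pits, and spans 6299788 to 6440712 of chromosome 15 (forward strand). ARG1+ libraries had 486, 361, 299, 386 and 373 CPM in m2, m6, m234, m235 and m236. ARG1- libraries had 473, 366, 254, 385 and 384 CPM. The ARG1+ library was higher in 3 animals and lower in 2, and the groups overlapped almost fully. The log2 fold change was 0.07 (standard error 0.149, edgeR FDR 0.788), and with the animal as a block 0.08 (standard error 0.0462, edgeR FDR 0.204). Its direction was reversed in 2 of the fits that left out a library, with -0.03 without the ARG1+ library of m2 and -0.04 without the ARG1- library of m234.

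*Pf4* codes for the chemokine CXCL4, first known from platelet granules and also made by some tissue macrophages. This short gene spans 90772435 to 90773383 of chromosome 5 (forward strand). It was at 26.1, 20.1, 10.1, 13.1 and 16.1 CPM in ARG1+ libraries of m2, m6, m234, m235 and m236. In ARG1- libraries it was at 8.49, 4.60, 1.91, 3.83 and 3.90 CPM, the value in m234 resting on 16 counts. All ARG1+ libraries were above all ARG1- libraries. The log2 fold change was 1.88 (standard error 0.315, edgeR FDR 0.00324), a fold of 3.69, and it was the largest among the 5 tested members. It was 1.76 (edgeR FDR 0.00456) without the ARG1- library of m234 and 1.69 to 2.21 over the fits that left out a library or an animal, at an edgeR FDR of at most 0.0326.

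*F13a1* codes for the A subunit of coagulation factor XIII, a transglutaminase that crosslinks fibrin and fibronectin, and spans 36867178 to 37050244 of chromosome 13 (reverse strand). ARG1+ libraries held 953, 1088, 636, 1079.5 and 1270 CPM in m2, m6, m234, m235 and m236. ARG1- libraries held 515, 706, 307, 697 and 782 CPM. The ARG1+ library was higher in each animal, but the ARG1+ library of m234 lay below 3 of the ARG1- libraries. The log2 fold change was 0.78 (standard error 0.238, edgeR FDR 0.0511), just outside the limit. With the animal as a block it was 0.82 (standard error 0.0652, edgeR FDR 1.62e-05), and DESeq2 gave 0.78 (adjusted p = 0.00671). *F13a1* passed in 4 of the 15 fits that left out a library or an animal. They left out the ARG1- library of m234 (0.61, edgeR FDR 0.0485), both libraries of m234 (0.74, edgeR FDR 0.00855), the ARG1+ library of m234 (0.90, edgeR FDR 0.0268) or the ARG1- library of m236 (0.89, edgeR FDR 0.0457).

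**Figure D1:**
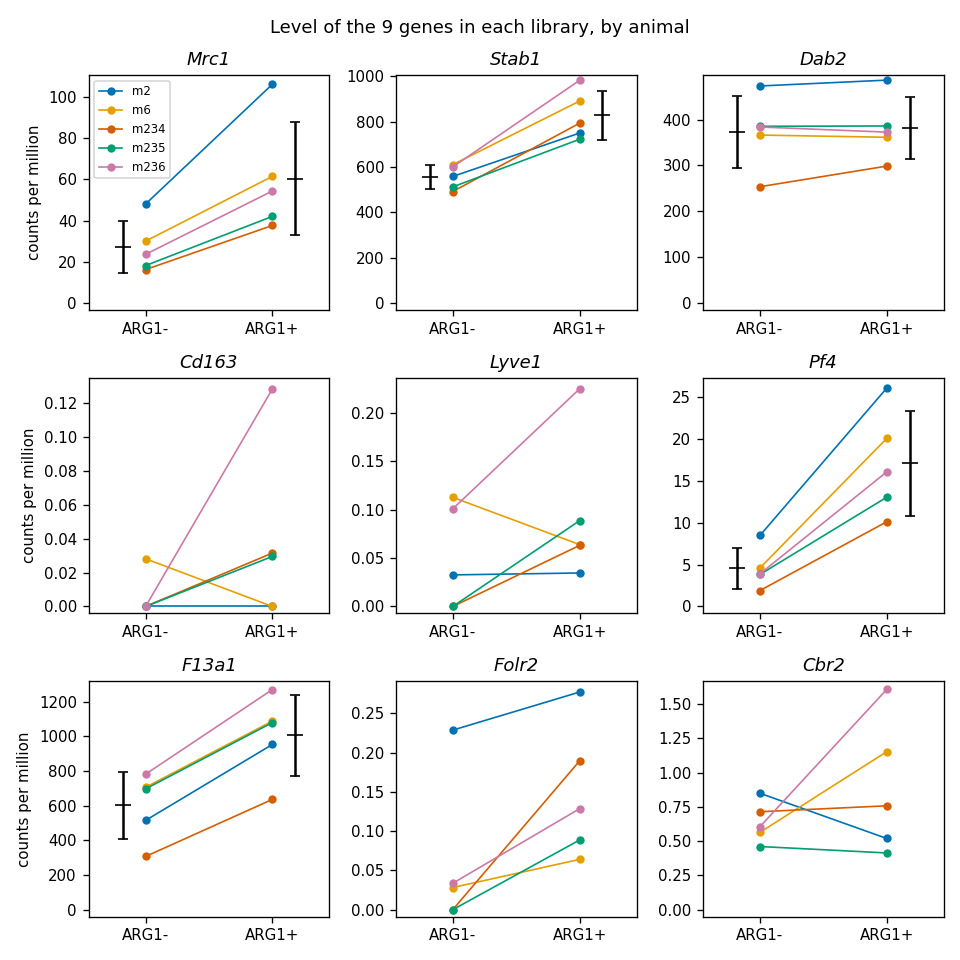
Level of each of the 9 genes in CPM (y axis, separate scale per gene) in the ARG1- and ARG1+ library of each animal, joined by a line. Black bars are the mean and SD over 5 libraries for the 5 genes that passed the filter. *Mrc1*, *Stab1*, *Pf4* and *F13a1* rise from ARG1- to ARG1+ in all 5 animals, *Dab2* rises in 3 animals and falls in 2, and *Cd163*, *Lyve1*, *Folr2* and *Cbr2* lie at or below 1.61 CPM.

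The remaining 4 genes, of which *Lyve1*, *Cd163* and *Folr2* are defining markers of border-associated macrophages, were at or near 0. The set is called here by its genes and not as a cell type. *Cd163*, the receptor for haptoglobin and haemoglobin (chromosome 6, from 124304656 to 124330527, forward strand), had 0, 0, 1, 1 and 4 counts in ARG1+ libraries of m2, m6, m234, m235 and m236 and 0, 1, 0, 0 and 0 in ARG1- libraries. *Lyve1*, a hyaluronan receptor (chromosome 7, from 110850607 to 110863239, reverse strand), had 1, 2, 2, 3 and 7 counts against 1, 4, 0, 0 and 3. Neither gene gave groups apart from each other.

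*Folr2*, the folate receptor beta (chromosome 7, from 101839988 to 101857194, reverse strand), had 8, 2, 6, 3 and 4 counts in ARG1+ libraries and 7, 1, 0, 0 and 1 in ARG1- libraries. Per total count, its level was higher in the ARG1+ library of all 5 animals, but the groups overlapped. The antisense gene *Gm10602* covers 60.3% of the exon bases of *Folr2*, and no source used here states whether counting used the strand, so that the counts of *Folr2* may be incomplete. *Cbr2*, a carbonyl reductase (chromosome 11, from 120729489 to 120732114, reverse strand), had the most counts of the 4, with 15, 36, 24, 14 and 50 in ARG1+ and 26, 20, 6, 13 and 18 in ARG1- libraries. It shares 12.1% of its 50-base stretches, mostly with the pseudogene *Gm11771*, so its value is uncertain.

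For each of these 4 genes, mean CPM was compared by a 2-sided exact permutation test over 5 and 5 libraries, in which p = 0.00794 is the smallest value possible. This exact permutation test gave p = 0.167 for *Cd163*, p = 0.325 for *Lyve1*, p = 0.159 for *Folr2* and p = 0.357 for *Cbr2*. The pooled counts, scaled to total counts, gave ratios of ARG1+ to ARG1- of 5.07 for *Cd163* (6 against 1 counts, 95% exact binomial interval 0.615 to 233), 1.58 for *Lyve1* (0.630 to 4.31), 2.16 for *Folr2* (0.962 to 5.30) and 1.41 for *Cbr2* (1.07 to 1.88). These intervals cover counting error only. A difference of *Cd163* or *Lyve1* was not detectable at this depth. For *Folr2*, the unadjusted exact permutation p was 0.0159 without the ARG1- library of m2 and 0.0286 without both libraries of m2. It was above 0.05 when any other library or animal was left out. The difference of *Cbr2*, whose interval lay above 1, was within the spread between libraries. In a fit of all 29542 genes with at least 1 count, the 4 genes had edgeR FDR values of 0.437, 0.629, 0.471 and 0.457.

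Per length of transcript (RPKM), the order in ARG1+ cells was *F13a1* (251 ± 58.8, SD, n = 5), *Stab1* (103 ± 13.4), *Dab2* (73.0 ± 12.9), *Pf4* (24.4 ± 8.92), *Mrc1* (11.2 ± 5.07) and *Cbr2* (0.802 ± 0.442), with the other 3 genes below 0.12. This order of the first 6 was the same in all 5 ARG1+ libraries. By mean RPKM, *F13a1* ranked 261 and *Mrc1* 5430 among 13725 tested genes in ARG1+ cells. In ARG1- cells, *F13a1* was at 150.3 ± 47.9, *Stab1* at 69.4 ± 6.53, *Dab2* at 71.4 ± 15.0, *Pf4* at 6.49 ± 3.46 and *Mrc1* at 5.07 ± 2.38 RPKM (SD, n = 5 each). There, *Stab1* and *Dab2* did not differ beyond their spread, *Dab2* being the higher in m2 and m235, and *Mrc1* was above *Pf4* in m234 only.

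Within each animal, the log2 ratio of ARG1+ to ARG1- CPM was largest for *Pf4* (1.62 to 2.41, median 2.05), followed by *Mrc1* (1.03 to 1.21, median 1.20). *F13a1* had ratios of 0.62 to 1.05 and *Stab1* of 0.42 to 0.71, and their order was the other way round in m236. The ratio of *Dab2* was -0.04 to 0.24. An ARG1+ library higher than the ARG1- library in all 5 animals was seen for 4 of the 5 tested members and for 15.9% of all tested genes.

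**Figure D2:**
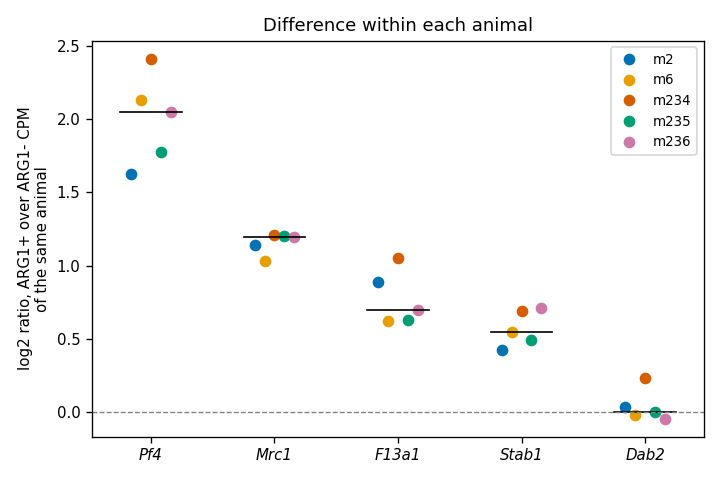
Log2 ratio of ARG1+ over ARG1- CPM of the same animal (y axis) for the 5 genes that passed the filter, 1 point per animal, with the median as a line. *Pf4* is highest in every animal, *Mrc1* is within 1.03 to 1.21, and *Dab2* is at -0.04 to 0.24.

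The animals also differed from each other in level, and for 4 of the 5 tested genes they had the same order in both cell groups. For *Mrc1* and *Pf4* the order was m2, m6, m236, m235 and m234, from high to low, in ARG1+ and in ARG1- libraries. The highest animal had 2.82 times the *Mrc1* level of the lowest in ARG1+ and 2.94 times in ARG1- libraries, and 2.58 and 4.46 times the *Pf4* level. *F13a1* had another order, m236, m6, m235, m2 and m234, again in both groups, and *Dab2* had m2, m235, m236, m6 and m234 in both. *Stab1* was the exception, with m236, m6, m234, m2 and m235 in ARG1+ and m6, m236, m2, m235 and m234 in ARG1- libraries. The libraries of 1 animal share their source, and no test was made of these orders.

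The likeness of profiles was measured over the 10 libraries as the root mean square difference of centred log2 CPM (0 for the same profile), with a pseudocount of 0.25 CPM. Among genes other than the members, the nearest to *Mrc1* were *AI427809* (0.237), *Akr1b8* (0.321) and *Fam20a* (0.336). Nearest to *Pf4* among these genes were *Atp6v0d2*, a subunit of the vacuolar proton pump (0.328), *Akr1b8*, an aldo-keto reductase (0.376), and *Slc36a2*, an amino acid transporter (0.465). *Akr1b8* was thus near to both. *Mrc1* was at rank 3 of 13739 genes in likeness to *Pf4*, and *Pf4* was at rank 20 in likeness to *Mrc1*. Since the profiles span both cell groups, this likeness includes the difference between ARG1+ and ARG1- cells for which both genes were called. The nearest genes of *F13a1* were *Ecm1* (0.124), *Pafah2* (0.150) and *Il1r1* (0.158), those of *Stab1* were *Nmnat3* (0.0855), *Iqgap2* (0.0915) and *Acad10* (0.0970), and those of *Dab2* were *Alg8*, *Gm44126* and *Sh3bgrl* (0.0924 to 0.0972). Every other rank between members was 135 or above: *F13a1* was at 135 in likeness to *Pf4* and *Pf4* at 11675 in likeness to *F13a1*, and *Stab1* was at 290 in likeness to *F13a1* and *F13a1* at 6734 in likeness to *Stab1*.

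Of 32 other genes that are used as markers of border-associated macrophages, 25 were tested, and 2 were higher, 0 lower and 23 not called (edgeR FDR below 0.05). At that limit 6.82% of all tested genes were higher and 6.15% lower, so that the 2 higher genes are near the share of all genes. At an unadjusted p under 0.05, and by DESeq2, 2 were higher and 1 lower. Their median log2 fold change was 0.07, against -0.0022 over all tested genes and 0.78 over the 5 members tested. *Ms4a7*, a tetraspan membrane protein, was at 101 ± 14.3 and 73.2 ± 9.55 CPM in ARG1+ and ARG1- cells (SD, n = 5 each), which is 0.50 on the log2 scale (standard error 0.106, edgeR FDR 0.0103). *Wfdc17*, a small secreted protein, was at 119 ± 22.5 and 85.5 ± 11.6 CPM, with 0.51 (standard error 0.134, edgeR FDR 0.0282). The call of *Ms4a7* was lost in 1 of 15 fits that left out a library or an animal (without both libraries of m6, edgeR FDR 0.0631), and that of *Wfdc17* in 8, with an edgeR FDR of up to 0.128. *Apoe*, the most abundant gene of the list, was at 19043 ± 6144 and 14381 ± 3656 CPM and was not called (0.45, standard error 0.242, edgeR FDR 0.238), but was with the animal as a block (0.42, edgeR FDR 6.32e-04). With that block 9 genes of the list were higher and 3 lower, where 16.8% and 18.3% of all tested genes were. Of the 7 not tested, *Vsig4*, *Cd209b*, *Cd209f* and *Cd209g* had 0 counts in all 10 libraries.

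**Figure D3:**
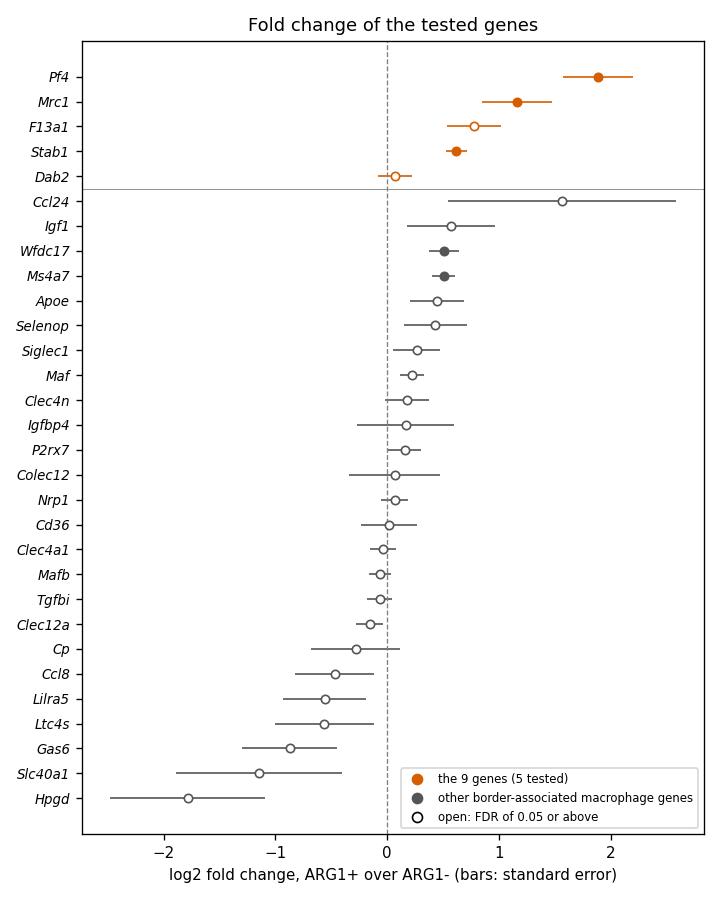
Log2 fold change of ARG1+ over ARG1- cells (x axis, bars are standard errors) for the 5 tested members, above the line, and the 25 tested other genes of border-associated macrophages. Filled points have an edgeR FDR below 0.05: *Pf4*, *Mrc1* and *Stab1* among the members, *Ms4a7* and *Wfdc17* among the others.

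Of 54 ligands, partners and pathway genes of the members, 44 were tested, and 4 were higher and 3 lower (edgeR FDR below 0.05), where 6.82% and 6.15% of all tested genes were. With the animal as a block they were 14 and 8, where 16.8% and 18.3% of all tested genes were. Without the ARG1- library of m234, 3 were higher and 2 lower. Their median log2 fold change was 0.03. Of 4 tested hyaluronan genes, which go with *Lyve1*, the hyaluronidases *Hyal1* (log2 fold change 0.79, standard error 0.185, edgeR FDR 0.0170) and *Hyal2* (0.58, standard error 0.149, edgeR FDR 0.0257) were higher. *Hmmr*, another hyaluronan receptor, named after its values were seen, was at -0.95 (standard error 0.436, edgeR FDR 0.165; 0.0377 with the block), with the lower value in the ARG1+ library of all 5 animals. Of the haemoglobin and heme genes, which go with *Cd163*, *Lrp1*, the receptor of hemopexin and many other ligands, was higher at 3018 ± 333 against 2270 ± 157 CPM (SD, n = 5 each), or 0.45 on the log2 scale (standard error 0.0862, edgeR FDR 0.00645).

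Of 10 tested folate genes, which go with *Folr2*, 1 was lower: *Mthfd2*, an enzyme of mitochondrial folate metabolism, at 26.0 ± 3.31 against 39.7 ± 3.38 CPM (log2 fold change -0.56, standard error 0.0922, edgeR FDR 0.00285). None of the 3 tested factor XIII substrates and transglutaminases and none of the 4 tested neighbours and receptors of *Pf4* passed at an edgeR FDR below 0.05. At an unadjusted p under 0.05 there was 1 higher and 1 lower in the first list and 1 lower in the second, DESeq2 called 1 higher and 1 lower in the first only, and the block gave 1 higher and 1 lower in each. Of the endocytic machinery, which serves *Mrc1*, *Stab1* and *Dab2*, 18 genes were tested, 1 higher and 2 lower. Among them, *Picalm*, a clathrin assembly protein, was lower (log2 fold change -0.23, standard error 0.0558, edgeR FDR 0.0215), and *Gga1* (0.15, standard error 0.0462, edgeR FDR 0.0484), an adaptor of the trans-Golgi network, was higher. The call was lost in 14 of 15 fits that left out a library or an animal for *Gga1*, 8 for *Hyal2*, 6 for *Picalm* and 2 for *Hyal1*. Those of *Lrp1* and *Mthfd2* held in all 15.

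Markers of other cells were summed in each library. Their calls stand beside those of all tested genes, of which edgeR called 6.82% higher and 6.15% lower. With the block these shares were 16.8% and 18.3%. The gate takes in monocyte-derived cells and microglia, whereas endothelial cells and fibroblasts lack CD45, and Ly6G and CD3 were used to remove neutrophils and T cells. For platelets, which also make *Pf4*, 4 of 11 markers were tested and 0 were called by edgeR or DESeq2, with 1 higher at an unadjusted p under 0.05 and 1 higher and 1 lower with the block. The most abundant was *Clec1b* (log2 fold change 0.57, edgeR FDR 0.142) and the most changed *Itgb3* (-1.21, edgeR FDR 0.188; FDR 0.0323 with the block), whose value was -0.65 without the ARG1- library of m234. *Clec1b* had an FDR of 0.0180 with the block. Their sum was 8.71 to 16.7 CPM in ARG1+ and 7.84 to 17.9 CPM in ARG1- libraries, *Gp1bb* had 0 counts in all libraries, and the defining gene *Ppbp* had 0 to 5 counts. For endothelial cells, which also make *Stab1* and *Lyve1*, 8 of 13 markers were tested, 1 was higher (*Pdpn*, log2 fold change 1.19, edgeR FDR 0.00409) and 2 were lower. The most changed of them, *Prox1*, was at -1.82 (edgeR FDR 0.108; FDR 0.00707 with the block and 0.0136 by DESeq2) and did not pass the filter without the ARG1- library of m234. With the block 2 markers were higher and 3 lower. The 13 markers summed to 254 to 401 CPM in ARG1+ and 217 to 314 CPM in ARG1- libraries. Of this sum, *Pdpn* alone was at 163 ± 37.8 and 73.1 ± 23.2 CPM (SD, n = 5 each). The median log2 fold change of the 8 tested markers was -0.11.

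Of 13 microglia markers tested of 14, 0 were higher and 2 lower, and 10 were lower with the block, with a median log2 fold change of -0.91. Of all tested genes, 6.82% were higher and 6.15% lower, and 16.8% and 18.3% with the block, which also applies to the next lists. The sum of the microglia markers was 834 to 1281 CPM in ARG1+ and 975 to 3583 CPM in ARG1- libraries. *Sparc*, the most changed, had a log2 fold change of -1.76 (edgeR FDR 0.0818; FDR 0.0227 with the block), and one of -0.70 (edgeR FDR 0.209) without the ARG1- library of m234. Without that library the sum was 975 to 1795 CPM in ARG1- libraries, the median log2 fold change was -0.50, and 0 markers were higher and 2 lower. For monocytes, which also make *F13a1*, 5 of 10 tested markers were lower and 0 higher, 6 lower and 2 higher with the block. Their sum was 3542 to 9244 CPM in ARG1+ and 3582 to 9048 CPM in ARG1- libraries. *Chil3*, the most abundant of them, was at 3488 ± 2004 and 2824 ± 1720 CPM (SD, n = 5 each) and weighs heavily in this sum. Its log2 fold change was 0.34 (edgeR FDR 0.664), and 0.38 with the block (edgeR FDR 0.00132). The median log2 fold change of the 10 markers was -0.79. For dendritic cells, 6 of 7 tested markers were lower, with *Flt3* at -3.59 (edgeR FDR 2.40e-04) and the most abundant, *Clec9a*, at 0.28 (edgeR FDR 0.547). The part of these cells in the differences of *Mrc1*, *Stab1*, *Pf4* and *F13a1* was not tested.

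Of the remaining lists, 3 of 9 neutrophil markers were tested, 0 higher and 1 lower (*S100a9*, -3.40, edgeR FDR 0.00977), and *Mmp8*, the most abundant, was at 0.84 (edgeR FDR 0.0878; FDR 4.23e-05 with the block). With the block 2 neutrophil markers were higher and 1 lower, where 16.8% and 18.3% of all tested genes were. Of 9 markers of T cells and B cells, 2 were tested and *Jchain* was lower (-2.87, edgeR FDR 0.0184). Of 9 markers of fibroblasts and mural cells, 1 was tested, *Acta2* (0.80, edgeR FDR 0.0915; FDR 0.0150 with the block and 0.0486 by DESeq2), and their sum was at most 6.79 CPM in any library.

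**Figure D4:**
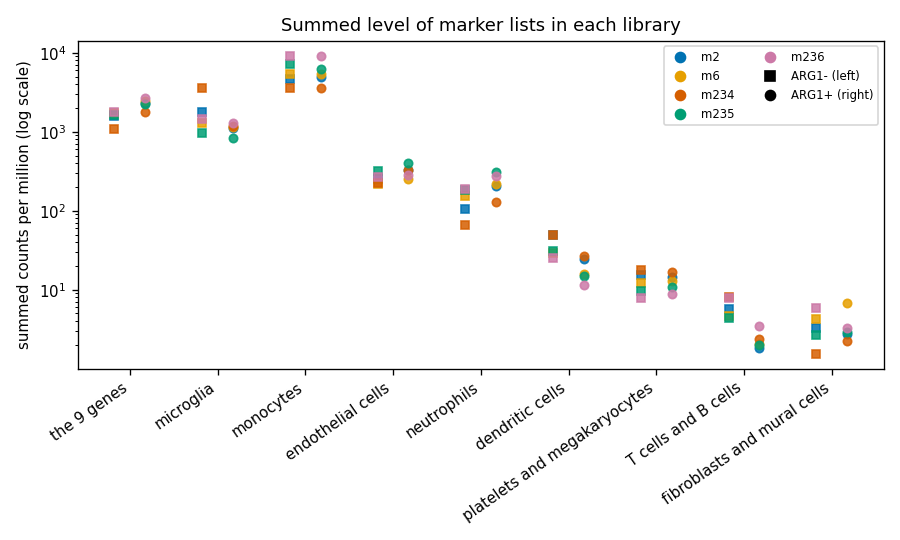
Summed CPM of marker lists (y axis, log scale) in each library, with ARG1- as squares on the left and ARG1+ as circles on the right of each list, coloured by animal. The 9 genes sum to 1777 to 2697 CPM in ARG1+ and 1072 to 1794 CPM in ARG1- libraries, and the microglia sum is highest in the ARG1- library of m234.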

How the data were processed

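The authors sequenced directional libraries (single-end, 50 bases). Reads were aligned to GRCm38 with STAR (2.7.10b per the submitters' processing notes), counted on Ensembl release 100 transcripts with summarizeOverlaps in Union mode and summed to genes. The deposited counts of the authors are whole numbers without normalization. No source used here states whether counting used the strand.

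The members and all lists were chosen with earlier results of these data known, and all libraries were mapped by their labels. A gene needed a CPM above 1 in 3 or more libraries, and those genes were tested with edgeR 4.0.16 (R 4.3.3; quasi-likelihood, TMM, Benjamini-Hochberg, FDR below 0.05), without a block. CPM are counts scaled to the total count of the library. RPKM used exon lengths of GENCODE M21, given for 55141 genes. Animal numbers pair the libraries, since both come from 1 animal, and residuals correlated at 0.361 to 0.664 across genes within an animal, against at most 0.0675 between animals. Alternatives were the animal as a block, DESeq2 1.42.0, limma-trend (limma 3.58.1, prior count 2), RLE factors, total counts, other filters and leaving out each library or animal. Fits were tested on simulated counts drawn without an animal effect, which cannot judge how they deal with the pairing. Libraries of a group differed beyond counting noise (chi-square over its degrees of freedom, 15.6 to 62.9). In the smallest library 1 CPM was 8.40 counts. Named genes are all members, the genes of the gate and called genes of the lists of other macrophage genes and of ligands and partners. Also named are the most abundant of the other macrophage genes and the most abundant and most changed gene of each cell type list. For each tested member, the 3 nearest profiles among genes outside the members are named too. Other genes named are those that overlap or share sequence with a member, those at or near 0 counts in a list and 1 named after its values were seen. Results for 3 genes covered by the rule are left out here.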

Additional observations from a re-analysis of the deposited data

Results flagged for a closer look

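Among the 100 groups of 5 libraries examined (the 9 genes and 41 other named genes in both cell groups), 8 had a library far from the other 4, by Dixon's ratio of the gap to the range above 0.71. Chance alone flags about 1 in 20 groups of normally distributed values, a share that does not hold for groups of a few counts. The members involved were under the filter on low counts. *Lyve1* was at 0.225 CPM in the ARG1+ library of m236, against 0.0346 to 0.0887 in the others, and *Cd163* at 0.129 CPM in the same library, against at most 0.0316. *Cd163* was at 0.0282 CPM in the ARG1- library of m6, a single count, with 0 in the other ARG1- libraries. *Folr2* was at 0.229 CPM in the ARG1- library of m2, against at most 0.0336.

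Outside the members, *Hyal1* was at 6.15 CPM in the ARG1+ library of m6, against 3.73 to 4.30. *Sparc* was at 636 CPM and *Prox1* at 8.46 CPM in the ARG1- library of m234, the smallest library, against 43.5 to 151 and 0.532 to 1.86. *Arg1* was at 27.9 CPM in the ARG1- library of m2, against 14.4 to 17.7. *Mrc1*, *Pf4* and *Dab2* were also highest in m2, in ARG1- and in ARG1+ libraries alike.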

How the results depend on the processing

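The higher level of *Mrc1*, *Stab1*, *Pf4* and *F13a1* in ARG1+ cells kept its direction in all fits, and 2 to 4 members were called higher and 0 lower in every fit that left out a library or an animal. The FDR of *Stab1* and *Pf4* was below 0.05 in all of these fits, although *Stab1* does not pass the added fold change limit, while the call of *Mrc1* was lost only where libraries or animals were left out, and that of *F13a1* was gained by the block, DESeq2, 4 of those fits and the fit without a filter (FDR 0.0262). A replicate block for the animal changed the whole table's 937 higher and 845 lower genes to 2307 and 2519, and altered no call of a member other than *F13a1*. With the fold change limit they were 77 and 122. With total counts only 1281 genes were lower, and with DESeq2 1307. Leaving out libraries or animals gave 360 to 1037 higher genes and 284 to 911 lower genes, with the lowest counts without both libraries of m6 (360 and 284) and of m2 (372 and 316). The log2 fold change of *Dab2* ranged from -0.035 to 0.16 when a library or an animal was left out, that of *Chil3* from -0.036 to 0.72 and that of *Gm44126* from -0.022 to 0.16, each on both sides of 0. The cause was not tested. The exact permutation p of *Folr2* was 0.0159 without the ARG1- library of m2 and 0.0286 without both libraries of m2. It was above 0.05 when any other library or animal was left out. CPM on TMM library sizes for the 4 genes under the filter was an alternative chosen after seeing the data, and left all 4 above 0.05. Depth limits *Cd163*, *Lyve1* and *Folr2*, which had at most 8 counts in a library. The 5 animals are the only replicates. P-values of the fits without a block and of the exact permutation tests rest on the spread between libraries of a group, taken as unpaired. Only the fit with the animal as a block takes the pairing into account.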
